A study of Mus musculus with 12 samples.

Results

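The tumour necrosis factor (TNF) superfamily was followed in resting B (RB) cells, as its ligands and its receptors. A gene counted as a member when the array's own annotation gave it a name beginning with Tnfsf or Tnfrsf, or when it was Cd40, Cd40lg, Fas, Fasl, Cd27, Cd70, Lta, Ltb, Tnf or Ltbr. This gave 41 of the 29411 gene names on the array, 17 ligands and 24 receptors, read by 54 probes. Ligands of the family are trimers, made as membrane proteins and in part shed, and they cluster receptors on the same or on neighbouring cells. Receptors with a cytoplasmic death domain can start apoptosis, whereas most of the others, decoy receptors apart, recruit TRAF adaptors and switch on NF-kB and kinase signalling. In B cells the family is known for survival through BAFF and APRIL and for help from T cells through CD40.

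RB cells came from spleens of BALB/c mice that the labels give as female and 6 weeks old, and that the methods give as male or female. CD43-negative selection, which removes T cells, myeloid cells and activated B cells, was the purification, and the cells were held for 4 h in culture. The 6 groups of 2 arrays each were unstimulated cells and cells given Pam2CSK4 (a synthetic lipopeptide that triggers TLR-2), an antibody to CD86 (anti-CD86), anti-CD86 + Pam2CSK4, an antibody to CD40 (anti-CD40), or anti-CD40 + Pam2CSK4. The anti-CD86 antibody carried biotin and was cross-linked with streptavidin, and the study's methods do not describe the anti-CD40 arrays. None of the 12 arrays is labelled as an isotype control, so that an effect of antibody and streptavidin as such was not tested. A legend of the study speaks of biological replicates, but no label ties the arrays of a group to separate mice or cultures, so that p-values measure the spread between these arrays, which may be technical.

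The level of a gene is the log2 processed signal of its brightest probe minus the 75th percentile of the array, so that 0 is the signal at that percentile. It can be compared between arrays and not between genes. Of the 2 slides, the first carried 8 arrays and the second 4, namely replicate 2 of each group apart from unstimulated cells and anti-CD40 + Pam2CSK4, whose arrays were all on slide 1. The slides separated the arrays, with 5648 probes higher and 12426 lower on slide 2, and 21 of the 30 members tested were lower on slide 2 and 1 was higher. The slide therefore entered the fit as a term, and a member was called when limma's adjusted p was under 0.05 over all 31599 probes tested. Between 46.6% and 60.6% of the spots of an array were well above background, and replicate 2 of anti-CD40 held the highest share. Defining B cell genes were well above background on every array (8 of 8 listed), but so were 9 of 10 T cell, 6 of 7 NK cell and 9 of 10 myeloid genes. The summed T cell signal ran from 5.13 to 5.15 (log2) on the unstimulated arrays and from 4.46 to 4.97 on the stimulated ones, and that of NK genes from 4.19 to 4.21 and from 3.39 to 3.98. The list of dendritic cell genes summed to between 2.81 and 3.08 on the 4 arrays with anti-CD40 and to between 1.74 and 2.07 elsewhere. That difference rested on Zbtb46 (2.11 to 2.57 against -0.86 to 0.30), and without it the sum ran from 1.22 to 1.52 and from 1.29 to 1.61. In RNA of a whole preparation, a change in the cells present and a change in RNA per cell cannot be told apart, and the part of these other cell types in the results was not tested.

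Of the 41 members, 30 were tested, and 11 were not well above background on both arrays of any group. Those left out were 7 ligands (Cd40lg, Cd70, Tnfsf10, Tnfsf11, Tnfsf12, Tnfsf15 and Tnfsf18) and 4 receptors (Tnfrsf8, Tnfrsf11a, Tnfrsf11b and Tnfrsf23). Members that passed did so because of their signal in at least 1 group, so that counts over the 30 do not describe all 41. Stimulation moved the family along 3 lines. Cd40, Fas, Tnfrsf13c (the BAFF receptor) and Tnfrsf13b (TACI) were higher with anti-CD40. Tnf was higher wherever Pam2CSK4 was given. Ltbr (the lymphotoxin beta receptor), Tnfrsf1a (TNF receptor 1) and Tnfrsf21 (death receptor 6) were lower than in unstimulated cells with each stimulus.

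Counted over the 30 members, Pam2CSK4 against unstimulated cells called 7, of which 3 were higher and 4 lower, where 11.8% of the 16751 genes tested were called (4.08% higher and 7.76% lower). Anti-CD86 called 10 members, 3 higher and 7 lower, where 30.6% of genes were called (10.4% and 20.3%). Anti-CD86 + Pam2CSK4 called 10, again 3 higher and 7 lower, beside 38.7% of genes (10.6% and 28.0%). Anti-CD40 called 12, 7 higher and 5 lower, beside 42.1% (12.9% and 29.2%). Anti-CD40 + Pam2CSK4 called 19, 12 higher and 7 lower, beside 52.9% (21.7% and 31.2%). As shares of the 30, these counts were 23.3%, 33.3%, 33.3%, 40% and 63.3%, which for anti-CD86, anti-CD86 + Pam2CSK4 and anti-CD40 is close to the share of all genes called. The median log2 change of the members was -0.04, -0.13, -0.06, 0.07 and 0.22 in that order, beside -0.07, -0.09, -0.11, -0.10 and -0.08 over all genes tested. These 5 comparisons share the unstimulated arrays and are not independent of each other. Without the slide term the counts were 0, 1, 6, 8 and 9, so that many calls of small changes described here depend on the slide term. On slide 1 alone, where most stimuli had 1 array, the 7 members called with Pam2CSK4 kept their direction. Those arrays are also part of the reported fit, so that the kept direction is no separate support. Leaving out 1 array at a time gave 2 to 3, 1 to 9, 7 to 8, 9 to 11 and 12 to 13, and the count of 1 for anti-CD86 came without replicate 2 of unstimulated cells. Scaling to the array median gave 1, 0, 3, 7 and 6, of which 1, 0, 1, 2 and 4 were higher. Shares of all genes called are given for the reported fit only, and not for these alternatives. The 19 with anti-CD40 + Pam2CSK4 include Tnfsf9 and Ltb, for which only bounds hold, and the 7 with Pam2CSK4 include Ltb.

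**Figure D1:**
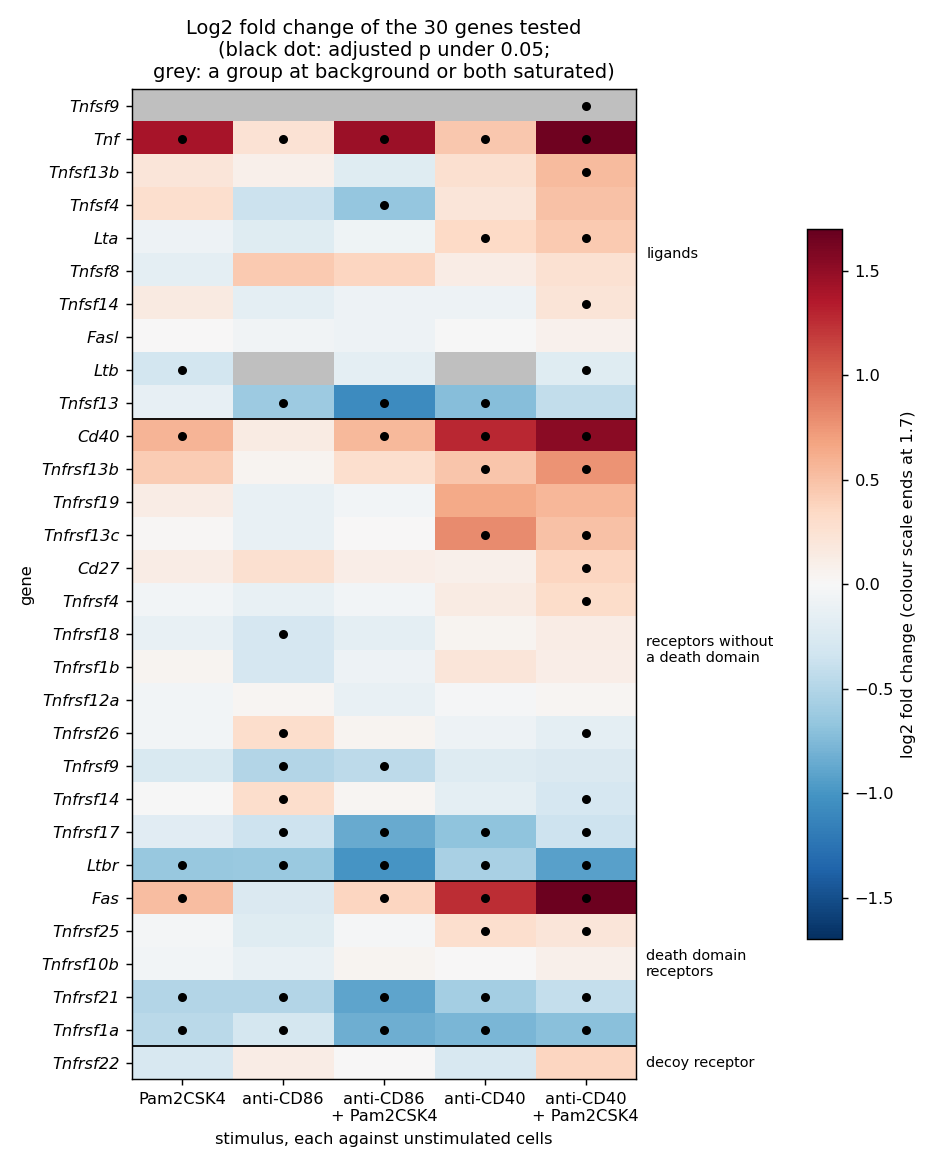
Log2 fold change of the 30 members tested (rows, by role) for each stimulus against unstimulated cells (columns), where red is higher, blue is lower and a black dot marks an adjusted p under 0.05. Tnf is red in every column, Ltbr, Tnfrsf21 and Tnfrsf1a are blue in every column, and Cd40 and Fas are darkest with anti-CD40. Grey marks Tnfsf9, whose unstimulated arrays were not well above background, and Ltb where both groups were saturated.

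Among the ligands, Tnf, Ltb and Lta lie next to each other on chromosome 17 with no protein-coding gene between them in the RefSeq annotation. TNF is an inflammatory cytokine, and lymphotoxin alpha forms soluble trimers or, with lymphotoxin beta, membrane trimers that bind the lymphotoxin beta receptor. Their promoters are printed because these neighbours responded differently. Each is the 250 bases before the RefSeq start site (assembly GRCm38.p6), 5′ to 3′ on the strand of the gene, and capitals mark a match to TATAAA on either strand (Tnf and Lta) or to the kappa B motif (Ltb).
Tnf, chr17:35202008-35202257, - strand: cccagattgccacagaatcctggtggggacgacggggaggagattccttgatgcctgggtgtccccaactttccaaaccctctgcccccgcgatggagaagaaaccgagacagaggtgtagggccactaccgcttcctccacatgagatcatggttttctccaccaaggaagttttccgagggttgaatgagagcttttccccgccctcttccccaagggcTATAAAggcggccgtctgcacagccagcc
Lta, chr17:35205352-35205601, - strand: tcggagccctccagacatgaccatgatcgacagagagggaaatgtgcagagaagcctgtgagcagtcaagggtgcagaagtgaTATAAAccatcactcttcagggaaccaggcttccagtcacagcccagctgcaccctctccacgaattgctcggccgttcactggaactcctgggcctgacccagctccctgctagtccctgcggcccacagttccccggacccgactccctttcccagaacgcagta
Ltb, chr17:35194257-35194506, + strand: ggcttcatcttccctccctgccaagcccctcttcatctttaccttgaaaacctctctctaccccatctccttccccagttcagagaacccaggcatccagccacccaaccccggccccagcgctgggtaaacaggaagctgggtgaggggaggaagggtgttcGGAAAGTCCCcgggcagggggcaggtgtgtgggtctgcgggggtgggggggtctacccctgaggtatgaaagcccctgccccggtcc
The TATAAA match of Tnf began 29 bases before the start site and that of Lta 167 bases before it, and 12.4% of 32851 such windows held this motif. The kappa B match of Ltb began 87 bases before the start and read on the opposite strand, and 7.25% of windows held one.

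Tnf had a level of 0.75 and 0.70 on the unstimulated arrays, 2.09 and 1.80 with Pam2CSK4, 0.94 and 0.66 with anti-CD86, 2.21 and 1.77 with anti-CD86 + Pam2CSK4, 1.22 and 0.80 with anti-CD40, and 2.42 and 2.34 with anti-CD40 + Pam2CSK4. All 6 arrays with Pam2CSK4 lay above all 6 without it. The change against unstimulated cells was 1.40 ± 0.07 (log2, SE of the fit, 2.64-fold, adjusted p = 0.00136) with Pam2CSK4, 1.45 ± 0.07 (adjusted p = 0.000408) with anti-CD86 + Pam2CSK4 and 1.66 ± 0.07 (3.16-fold, adjusted p = 1.89e-05) with anti-CD40 + Pam2CSK4. The last pair was called under every alternative processing, whereas the call with Pam2CSK4 alone was lost without the slide term (adjusted p = 0.0785) and on slide 1 alone (adjusted p = 0.124). Smaller increases were called with anti-CD40 (0.46 ± 0.07, adjusted p = 0.00308) and with anti-CD86 (0.25 ± 0.07, adjusted p = 0.037). Without the slide term the anti-CD40 increase was 0.29 (adjusted p = 0.358), and the anti-CD86 call was lost when any 1 of the 4 arrays was left out (adjusted p between 0.0783 and 0.152). Adding anti-CD86 to Pam2CSK4 changed Tnf by 0.05 (95% interval -0.11 to 0.20).

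Lta stood at 1.22 and 1.19 in unstimulated cells, 1.14 and 0.90 with Pam2CSK4, 0.97 and 0.84 with anti-CD86, 1.17 and 0.89 with anti-CD86 + Pam2CSK4, 1.53 and 1.35 with anti-CD40, and 1.60 and 1.69 with anti-CD40 + Pam2CSK4. The 4 arrays with anti-CD40 were the highest of the 12. Anti-CD40 raised Lta by 0.34 ± 0.06 (adjusted p = 0.00697) and anti-CD40 + Pam2CSK4 by 0.44 ± 0.06 (1.36-fold, adjusted p = 0.00142), and neither was called without the slide term (adjusted p = 0.272 and 0.0669). No change was called with Pam2CSK4 (-0.08, 95% interval -0.23 to 0.08) or with anti-CD86 + Pam2CSK4 (-0.07, -0.22 to 0.08).

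Ltb was read by 1 probe that was saturated on 6 of the 12 arrays, among them both arrays of unstimulated cells, anti-CD86 and anti-CD40, so that only bounds can be given against these groups. Its level was 7.69 and 7.81 in unstimulated cells, 7.42 and 7.15 with Pam2CSK4, 7.65 and 7.39 with anti-CD86, 7.60 and 7.26 with anti-CD86 + Pam2CSK4, 7.80 and 7.47 with anti-CD40, and 7.52 and 7.55 with anti-CD40 + Pam2CSK4. The limma fit on the saturated signals put unstimulated cells 1.24-fold above cells given Pam2CSK4 (adjusted p = 0.0322). Against cells given anti-CD40 + Pam2CSK4 they were 1.16-fold higher (adjusted p = 0.0264). Saturation of the unstimulated arrays can hide a larger difference, but these fitted values are no strict bounds. Under the alternatives the log2 changes ran from -0.46 to -0.24 and from -0.35 to -0.15. The Pam2CSK4 call was lost when any 1 of the 4 arrays was left out (adjusted p between 0.0765 and 0.213), and the other was lost without replicate 1 or replicate 2 of anti-CD40 + Pam2CSK4 (adjusted p = 0.109 and 0.0743) or replicate 2 of unstimulated cells (adjusted p = 0.147).

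Tnfsf13 encodes APRIL, a ligand of TACI and BCMA, and Tnfsf13b encodes BAFF, the survival factor of B cells. Tnfsf13 had a level of -1.27 and -1.15 in unstimulated cells, -1.22 and -1.64 with Pam2CSK4, -2.01 and -1.80 with anti-CD86, -2.14 and -2.59 with anti-CD86 + Pam2CSK4, -2.03 and -1.99 with anti-CD40, and -1.66 and -1.61 with anti-CD40 + Pam2CSK4. The anti-CD86 + Pam2CSK4 arrays were the lowest, and the unstimulated arrays and replicate 1 of Pam2CSK4 the highest. The fall against unstimulated cells was -1.07 ± 0.18 (2.10-fold lower, adjusted p = 0.00552) with anti-CD86 + Pam2CSK4 and was called under every alternative. It was -0.72 ± 0.18 (adjusted p = 0.0196) with anti-CD40 and -0.62 ± 0.18 (adjusted p = 0.0434) with anti-CD86. The anti-CD40 call was lost without replicate 1 of anti-CD40 (adjusted p = 0.144) or without either unstimulated array (adjusted p = 0.0583 and 0.0885), and the anti-CD86 call without replicate 1 of anti-CD86 (adjusted p = 0.331) or without either unstimulated array (adjusted p = 0.108 and 0.162). With anti-CD40 + Pam2CSK4 it was -0.42 (95% interval -0.83 to -0.02, adjusted p = 0.0793), which was not called. Tnfsf12, which lies next to Tnfsf13, was not well above background on any array.

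Tnfsf13b had levels of -2.19 and -2.08 in unstimulated cells, -1.88 and -2.09 with Pam2CSK4, -2.14 and -2.06 with anti-CD86, -2.37 and -2.43 with anti-CD86 + Pam2CSK4, -1.79 and -2.05 with anti-CD40, and -1.71 and -1.48 with anti-CD40 + Pam2CSK4. The lowest and the highest pair were those given Pam2CSK4 with anti-CD86 and with anti-CD40. It rose by 0.54 ± 0.11 (1.45-fold, adjusted p = 0.00786) with anti-CD40 + Pam2CSK4 and was called against unstimulated cells with no other stimulus. This call was lost under 2 alternatives (adjusted p up to 0.295).

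Tnfsf4 (OX40L) and Tnfsf9 (4-1BBL) are costimulatory ligands for T cells. Tnfsf4 was at -2.03 and -2.32 in unstimulated cells, -1.80 and -2.09 with Pam2CSK4, -2.37 and -2.81 with anti-CD86, -2.94 and -2.83 with anti-CD86 + Pam2CSK4, -2.10 and -1.94 with anti-CD40, and -1.51 and -1.85 with anti-CD40 + Pam2CSK4. With anti-CD86 + Pam2CSK4 it was lower by 0.66 on the log2 scale (-0.66 ± 0.20, adjusted p = 0.0472), a call that was lost when any 1 of the 4 arrays was left out (adjusted p between 0.0651 and 0.315). Tnfsf9 was not well above background on either unstimulated array, so that only a bound can be given. Its levels were -3.96 and -5.17 there, -3.18 and -3.50 with Pam2CSK4, -3.95 and -3.86 with anti-CD86, -2.63 and -4.05 with anti-CD86 + Pam2CSK4, -3.58 and -3.48 with anti-CD40, and -1.84 and -2.67 with anti-CD40 + Pam2CSK4. In the last group Tnfsf9 was at least 2.80-fold higher than in unstimulated cells. Its adjusted p of 0.0125 belongs to the fit on the measured signals, those below background included, and not to the bound, and Tnfsf9 entered the tests only through the 2 combinations, where both arrays measured it. This call was lost without replicate 1 of anti-CD40 + Pam2CSK4 (adjusted p = 0.0649) or replicate 2 of unstimulated cells (adjusted p = 0.0608). The same ratio was 1.32-fold with Pam2CSK4, 1.32-fold with anti-CD86 + Pam2CSK4 and 1.16-fold with anti-CD40, where 1, 2 and 1 of the arrays measured it. With Pam2CSK4 and anti-CD40 it is no strict bound, since an array of the brighter group was not well above background. These ratios take no account of the slide, and none of the changes was called by limma (adjusted p = 0.153, 0.0974 and 0.14). A bound is the mean of the brighter group against the lowest signal well above background on each array of the dimmer group, or the probe's own signal where that was higher.

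Of the other ligands tested, Tnfsf14 (LIGHT, a ligand of HVEM and of the lymphotoxin beta receptor) rose by 0.22 ± 0.07 with anti-CD40 + Pam2CSK4 (adjusted p = 0.0453), a change that was not called without the slide term (adjusted p = 0.549). Fasl, the ligand of Fas, moved by between -0.08 and 0.07 over the 5 stimuli, and Tnfsf8 (CD30L) by between -0.16 and 0.44, and neither was called. Of the ligands left out of the tests, 2 had 1 array apart from the rest. Cd40lg, the ligand of CD40, was at -2.05 on replicate 1 of unstimulated cells and between -6.54 and -5.41 on the other 11 arrays. Tnfsf18 (GITRL) was at -2.63 on replicate 1 of anti-CD40 + Pam2CSK4 and between -6.54 and -4.08 elsewhere. Cd70, the ligand of CD27, was well above background on 2 arrays, replicate 2 of anti-CD86 + Pam2CSK4 (-3.84) and of anti-CD40 (-3.00), both on slide 2.

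**Figure D2:**
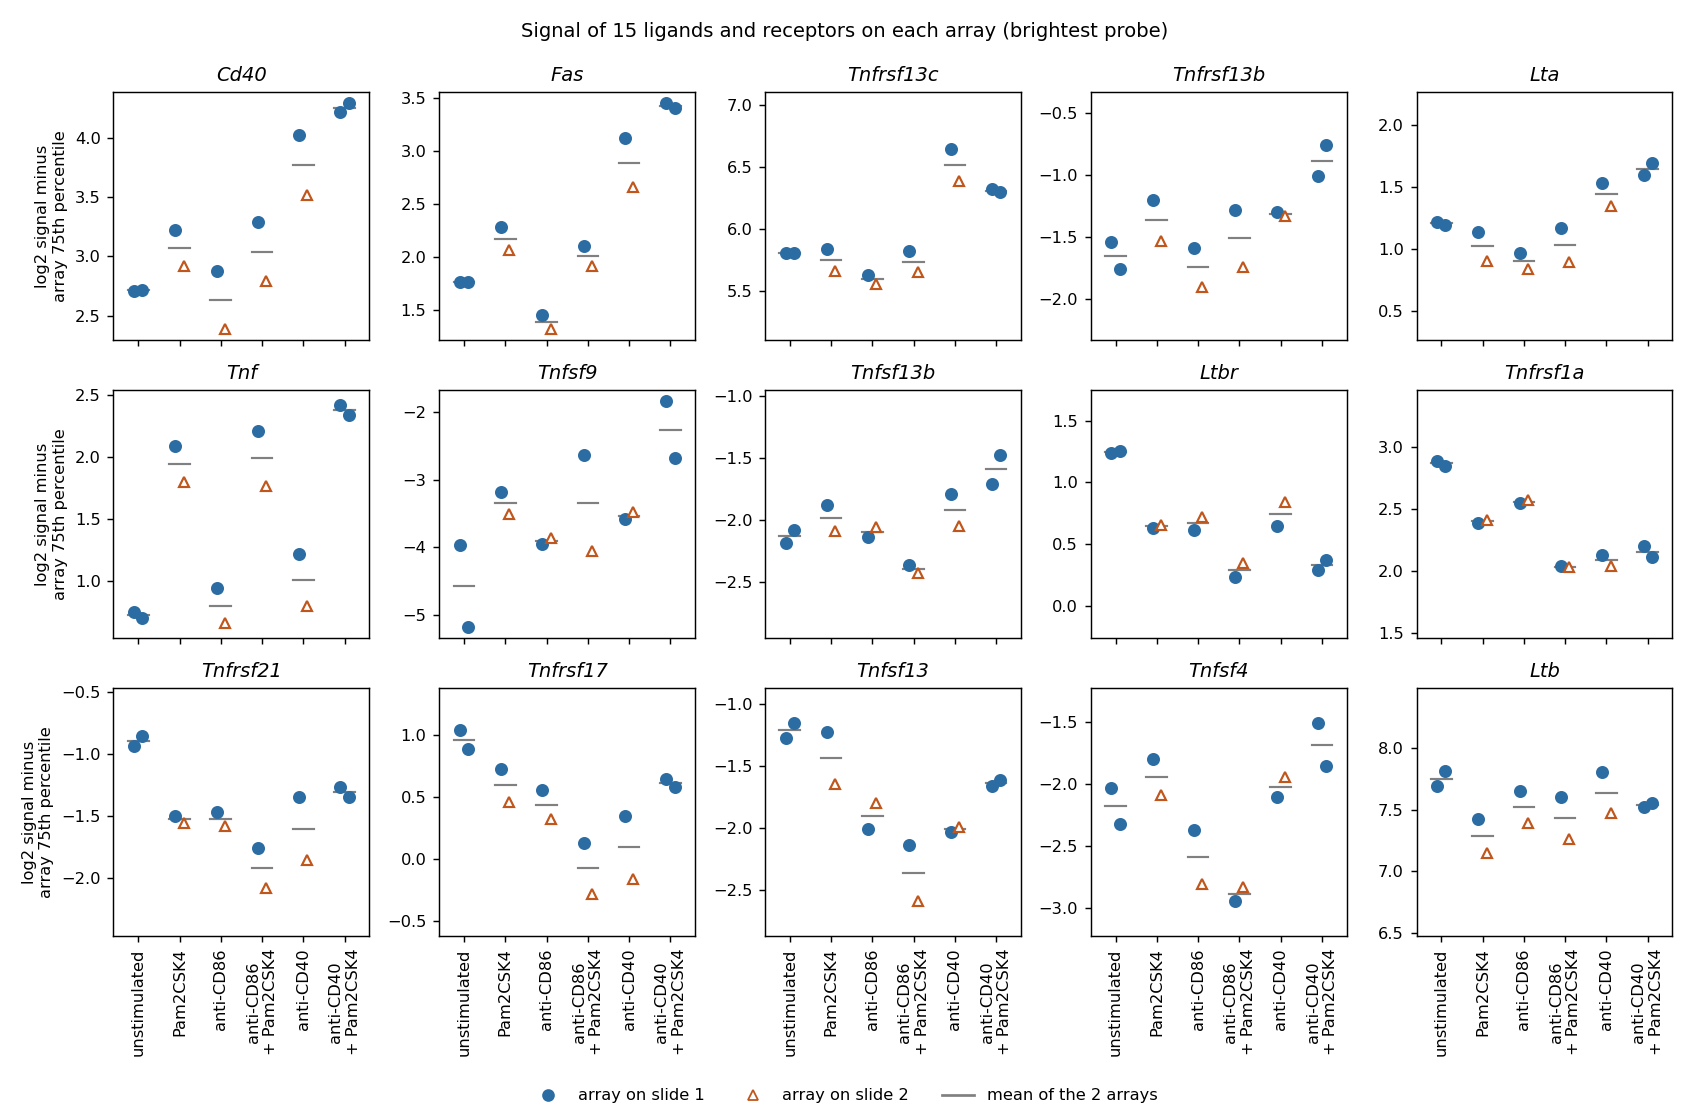
Log2 signal minus the 75th percentile of the array for 15 ligands and receptors on the 12 arrays, with 1 panel a gene and its own y axis. Filled circles are arrays of slide 1, open triangles those of slide 2, and grey bars the mean of the 2 arrays of a group. In the panel of Tnf the 3 groups with Pam2CSK4 stand above the others, and in those of Cd40 and Fas the groups with anti-CD40 do.

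Among the receptors without a death domain, Cd40, which receives T cell help, had the largest change. Its level was 2.71 and 2.72 in unstimulated cells, 3.22 and 2.92 with Pam2CSK4, 2.88 and 2.39 with anti-CD86, 3.29 and 2.79 with anti-CD86 + Pam2CSK4, 4.02 and 3.52 with anti-CD40, and 4.22 and 4.29 with anti-CD40 + Pam2CSK4. The 4 arrays with anti-CD40 lay above the other 8. The increase was 1.28 ± 0.07 (2.43-fold, adjusted p = 0.00014) with anti-CD40 and 1.54 ± 0.07 (2.90-fold, adjusted p = 2.32e-05) with anti-CD40 + Pam2CSK4, and these were called under every alternative. Smaller increases were called with Pam2CSK4 (0.58 ± 0.07, adjusted p = 0.00995) and with anti-CD86 + Pam2CSK4 (0.55 ± 0.07, adjusted p = 0.00237). The Pam2CSK4 call was lost without either unstimulated array (adjusted p = 0.0613 and 0.0625), and without the slide term the changes were 0.35 (adjusted p = 0.479) and 0.33 (adjusted p = 0.393). With anti-CD86 alone the change was 0.14 (95% interval -0.03 to 0.31), and adding anti-CD86 to Pam2CSK4 changed Cd40 by -0.03 (-0.18 to 0.13). Cd40 had 2 dimmer probes that share 56 of their 60 bases and therefore are not separate measurements. They gave 1.72 ± 0.21 and 1.55 ± 0.21 with anti-CD40 (adjusted p = 0.00144 and 0.00208), and neither was called with Pam2CSK4 (0.47 and 0.41, adjusted p = 0.187 and 0.249).

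BAFF and APRIL signal through 3 receptors on B cells, namely the BAFF receptor (Tnfrsf13c), TACI (Tnfrsf13b) and BCMA (Tnfrsf17), which is best known from plasma cells. Tnfrsf13c was at 5.81 and 5.81 in unstimulated cells, 5.84 and 5.66 with Pam2CSK4, 5.63 and 5.56 with anti-CD86, 5.82 and 5.65 with anti-CD86 + Pam2CSK4, 6.65 and 6.39 with anti-CD40, and 6.32 and 6.30 with anti-CD40 + Pam2CSK4. All arrays with anti-CD40 lay above all others. It rose by 0.80 ± 0.06 (1.74-fold, adjusted p = 0.000341) with anti-CD40 and by 0.50 ± 0.06 (1.42-fold, adjusted p = 0.000688) with anti-CD40 + Pam2CSK4, and these calls were lost only under scaling to the array median. The changes with Pam2CSK4 (0.02, 95% interval -0.12 to 0.17) and with anti-CD86 + Pam2CSK4 (0.01, -0.13 to 0.16) were not called.

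Tnfrsf13b was at -1.54 and -1.76 in unstimulated cells, -1.20 and -1.53 with Pam2CSK4, -1.59 and -1.90 with anti-CD86, -1.28 and -1.74 with anti-CD86 + Pam2CSK4, -1.30 and -1.33 with anti-CD40, and -1.01 and -0.76 with anti-CD40 + Pam2CSK4. The last pair was above every other array. The increase was 0.76 ± 0.13 (1.69-fold, adjusted p = 0.00443) with anti-CD40 + Pam2CSK4 and 0.47 ± 0.14 (adjusted p = 0.0405) with anti-CD40. The first call was lost under 1 alternative (adjusted p = 0.0741). The second call was lost without replicate 2 of anti-CD40 (adjusted p = 0.12) or without either unstimulated array (adjusted p = 0.0555 and 0.173).

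Tnfrsf17 went the other way. It stood at 1.04 and 0.89 in unstimulated cells, 0.73 and 0.46 with Pam2CSK4, 0.56 and 0.32 with anti-CD86, 0.13 and -0.28 with anti-CD86 + Pam2CSK4, 0.35 and -0.16 with anti-CD40, and 0.65 and 0.58 with anti-CD40 + Pam2CSK4. Each stimulated array was below both unstimulated arrays. The fall was -0.86 ± 0.09 (1.82-fold lower, adjusted p = 0.00144) with anti-CD86 + Pam2CSK4 and -0.69 ± 0.09 (1.62-fold lower, adjusted p = 0.00191) with anti-CD40. It was -0.35 ± 0.09 with anti-CD86 (adjusted p = 0.0321) and -0.35 ± 0.09 with anti-CD40 + Pam2CSK4 (adjusted p = 0.015). The call with anti-CD86 + Pam2CSK4 was lost under 1 alternative (adjusted p = 0.0795). The anti-CD86 call was lost without either unstimulated array or replicate 1 of anti-CD86 (adjusted p between 0.0559 and 0.226), and the anti-CD40 + Pam2CSK4 call without replicate 1 of unstimulated cells or replicate 2 of anti-CD40 + Pam2CSK4 (adjusted p = 0.0861 and 0.0759). The change with Pam2CSK4 alone was -0.19 (95% interval -0.41 to 0.03).

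Ltbr and Tnfrsf1a lie on chromosome 6 with 1 protein-coding gene between them, and Cd27 lies on the other side of Ltbr, again 1 gene away. The lymphotoxin beta receptor is known from stromal and myeloid cells, and TNF receptor 1 is the broadly expressed death domain receptor of TNF. Their promoters are printed because both fell with every stimulus. In the 250 bases before each start site (GRCm38.p6, 5′ to 3′) neither held TATAAA, the kappa B motif or TGANTCA, so that no letter is in capitals.
Ltbr, chr6:125313886-125314135, - strand: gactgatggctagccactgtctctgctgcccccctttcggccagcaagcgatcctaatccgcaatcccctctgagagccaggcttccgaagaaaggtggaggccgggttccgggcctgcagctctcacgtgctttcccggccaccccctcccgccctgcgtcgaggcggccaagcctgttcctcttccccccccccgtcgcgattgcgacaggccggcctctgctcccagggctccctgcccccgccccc
Tnfrsf1a, chr6:125349473-125349722, + strand: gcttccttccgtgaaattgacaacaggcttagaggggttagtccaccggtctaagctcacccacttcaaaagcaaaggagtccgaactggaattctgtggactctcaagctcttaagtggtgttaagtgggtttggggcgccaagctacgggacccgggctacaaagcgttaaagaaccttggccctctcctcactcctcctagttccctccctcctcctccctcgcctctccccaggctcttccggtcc
Ltbr had a level of 1.24 and 1.25 in unstimulated cells, 0.63 and 0.66 with Pam2CSK4, 0.62 and 0.72 with anti-CD86, 0.24 and 0.35 with anti-CD86 + Pam2CSK4, 0.65 and 0.84 with anti-CD40, and 0.29 and 0.37 with anti-CD40 + Pam2CSK4. Every stimulated array was below both unstimulated arrays, and the arrays given an antibody with Pam2CSK4 were the lowest. The changes were -0.65 ± 0.06 with Pam2CSK4, -0.63 ± 0.06 with anti-CD86, -1.0 ± 0.06 (2.01-fold lower) with anti-CD86 + Pam2CSK4, -0.55 ± 0.06 with anti-CD40 and -0.92 ± 0.06 (1.89-fold lower) with anti-CD40 + Pam2CSK4, with adjusted p between 7.92e-05 and 0.00533. The call with Pam2CSK4 was lost without replicate 1 of Pam2CSK4 (adjusted p = 0.0513), without the filter on dim probes, without the slide term (adjusted p = 0.1), on slide 1 alone (0.124) and under scaling to the array median (0.494). The call with anti-CD86 was lost on slide 1 alone (adjusted p = 0.0512) and under scaling to the array median (0.367). Those with anti-CD40 and with either combination were called under every alternative. Ltbr did not differ by slide past the threshold (0.11, adjusted p = 0.055). The summed signal of the myeloid list (log2) ran from 8.32 to 8.44 in unstimulated cells, from 8.18 to 8.32 with Pam2CSK4, from 8.07 to 8.14 with anti-CD86, from 8.10 to 8.25 with anti-CD86 + Pam2CSK4, from 8.07 to 8.25 with anti-CD40 and from 8.37 to 8.56 with anti-CD40 + Pam2CSK4. This sum rests largely on its brightest genes, S100a9 (7.39 to 8.09 over all arrays) and S100a8 (6.26 to 7.0). S100a9 covers almost the same range as Nfkbia (7.39 to 8.08), an NF-kB pathway gene whose probe was saturated in each group. S100a9 may thus be saturated too, so that the sum is a poor measure of myeloid RNA. A part of myeloid cells in the level of Ltbr was not tested.

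Tnfrsf1a, the first of the 5 death domain receptors, was at 2.89 and 2.85 in unstimulated cells, 2.39 and 2.41 with Pam2CSK4, 2.55 and 2.57 with anti-CD86, 2.04 and 2.03 with anti-CD86 + Pam2CSK4, 2.13 and 2.04 with anti-CD40, and 2.20 and 2.11 with anti-CD40 + Pam2CSK4. Arrays of a group lay close together, also across slides, and no stimulated array reached an unstimulated one. The changes were -0.46 ± 0.06, -0.30 ± 0.06, -0.83 ± 0.06, -0.78 ± 0.06 and -0.71 ± 0.06 in the same order, with adjusted p between 0.000193 and 0.0141. The call with anti-CD86 + Pam2CSK4 was lost under 1 alternative (adjusted p = 0.0848). The anti-CD86 call was lost without either unstimulated array or replicate 1 of anti-CD86 (adjusted p between 0.0539 and 0.0964), and the Pam2CSK4 call without any 1 of its 4 arrays (adjusted p between 0.0572 and 0.117). The receptor that shares TNF as ligand, Tnfrsf1b (TNF receptor 2), moved by between -0.28 and 0.20 and was not called.

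Tnfrsf21 was at -0.94 and -0.86 in unstimulated cells, -1.50 and -1.56 with Pam2CSK4, -1.47 and -1.58 with anti-CD86, -1.76 and -2.08 with anti-CD86 + Pam2CSK4, -1.35 and -1.86 with anti-CD40, and -1.27 and -1.35 with anti-CD40 + Pam2CSK4. All 10 stimulated arrays were below both unstimulated arrays. The change was -0.90 ± 0.12 (1.86-fold lower, adjusted p = 0.0027) with anti-CD86 + Pam2CSK4, -0.58 ± 0.12 (adjusted p = 0.0101) with anti-CD40 and between -0.50 and -0.41 with the others (adjusted p between 0.0234 and 0.0462). The call with anti-CD86 + Pam2CSK4 was lost under 1 alternative (adjusted p = 0.0811). The calls with Pam2CSK4 and with anti-CD40 + Pam2CSK4 were lost without any 1 of the 4 arrays (adjusted p between 0.0585 and 0.3), that with anti-CD86 without 3 of them (replicate 1 of anti-CD86 and either unstimulated array, adjusted p between 0.0734 and 0.179), and that with anti-CD40 without replicate 2 of unstimulated cells (adjusted p = 0.0542). A dimmer probe of the gene fell by 1.47 with anti-CD86 + Pam2CSK4 (adjusted p = 0.00242) and was not called with anti-CD40 (-0.50, adjusted p = 0.0818).

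Fas, the death domain receptor of Fas ligand, rose with anti-CD40. Its promoter is printed as that of the member with the largest increase among the receptors (250 bases before the start site, GRCm38.p6, 5′ to 3′), and capitals mark a match to TGANTCA, the AP-1 motif, which reads the same on both strands.
Fas, chr19:34290409-34290658, + strand: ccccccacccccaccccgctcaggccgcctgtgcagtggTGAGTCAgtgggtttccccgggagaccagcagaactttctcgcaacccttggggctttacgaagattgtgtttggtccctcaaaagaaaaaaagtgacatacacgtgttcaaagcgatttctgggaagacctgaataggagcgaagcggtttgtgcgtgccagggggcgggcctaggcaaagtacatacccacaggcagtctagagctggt
The match began 211 bases before the start site. Of the 31 members with a window in the RefSeq table, 6 held this motif (Fas, Tnfrsf8, Tnfrsf9, Tnfsf13, Tnfsf13b and Tnfsf14), 4 the kappa B motif (Ltb, Tnfrsf8, Tnfrsf9 and Tnfrsf25) and 6 TATAAA, and 6.75% of all windows held the AP-1 motif. Fas stood at 1.76 and 1.76 in unstimulated cells, 2.28 and 2.06 with Pam2CSK4, 1.45 and 1.32 with anti-CD86, 2.10 and 1.91 with anti-CD86 + Pam2CSK4, 3.12 and 2.66 with anti-CD40, and 3.45 and 3.41 with anti-CD40 + Pam2CSK4. Arrays with anti-CD40 were the highest and those with anti-CD86 alone the lowest. The increase was 1.26 ± 0.09 (2.39-fold, adjusted p = 0.000259) with anti-CD40 and 1.67 ± 0.08 (3.18-fold, adjusted p = 3.76e-05) with anti-CD40 + Pam2CSK4, and both were called under every alternative. Pam2CSK4 (0.53 ± 0.09, adjusted p = 0.0192) and anti-CD86 + Pam2CSK4 (0.37 ± 0.09, adjusted p = 0.0186) also gave calls, each lost when any 1 of the 4 arrays was left out (adjusted p between 0.0688 and 0.131). The change with anti-CD86 was -0.25 (95% interval -0.46 to -0.04, adjusted p = 0.0754).

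The remaining receptors moved little. Tnfrsf25 (death receptor 3) rose by 0.29 with anti-CD40 and by 0.21 with anti-CD40 + Pam2CSK4 (adjusted p = 0.026 and 0.0468). Cd27 and Tnfrsf4 (OX40) rose by 0.37 and 0.31 with anti-CD40 + Pam2CSK4 (adjusted p = 0.043 and 0.005). Tnfrsf9 (4-1BB) fell by 0.50 with anti-CD86 and by 0.45 with anti-CD86 + Pam2CSK4, and Tnfrsf18 (GITR) fell by 0.29 with anti-CD86. Tnfrsf14 (HVEM, the receptor of LIGHT) and Tnfrsf26 were each called in both directions, higher by 0.30 with anti-CD86 and lower by 0.29 and 0.17 with anti-CD40 + Pam2CSK4. None of these changes was called without the slide term. Cd27, Tnfrsf4, Tnfrsf9, Tnfrsf18 and Tnfrsf25 are also expressed by T cells, whose marker genes had a lower summed signal on the stimulated arrays. Of these receptors, Cd27, Tnfrsf4 and Tnfrsf25 were called higher and Tnfrsf9 and Tnfrsf18 lower, and a part of T cells in this was not tested. Tnfrsf10b (a TRAIL receptor), Tnfrsf12a, Tnfrsf19 and the decoy receptor Tnfrsf22 were not called with any stimulus.

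The study set signals on top of TLR-2, so the combinations were also compared with Pam2CSK4 alone and with each other. Anti-CD86 + Pam2CSK4 against Pam2CSK4 called 5 members (10.8% of genes were called, 3.31% higher and 7.47% lower), all of them lower, namely Tnfsf4 (-0.94 ± 0.19), Tnfsf13 (-0.93 ± 0.17), Tnfrsf17 (-0.67 ± 0.09), Tnfrsf1a (-0.37 ± 0.06) and Ltbr (-0.35 ± 0.06), with adjusted p between 0.0119 and 0.0319. No member was called higher, and 10 members in either direction had an unadjusted p under 0.05. None of the 5 was called when any 1 of the arrays of these groups was left out, or without the slide term, where limma called 0 members. Anti-CD40 + Pam2CSK4 against Pam2CSK4 called 10 members, 7 higher and 3 lower, where 34.4% of genes were called (16.1% and 18.3%). The largest were Fas (1.13 ± 0.09, adjusted p = 0.000342), Cd40 (0.96 ± 0.07, adjusted p = 0.0003), Lta (0.52 ± 0.06, adjusted p = 0.00176) and Tnfrsf13c (0.48 ± 0.06, adjusted p = 0.00195), the 4 that were also called without the slide term.

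Between the combinations the family differed most in one direction. With Pam2CSK4 in both, anti-CD40 against anti-CD86 called 15 members, 13 higher and 2 lower (Tnfrsf14 and Tnfrsf26), where 38.1% of all genes were called, 22.0% higher and 16.1% lower. The median change was 0.30 over the 30 members and 0.06 over all genes tested. The count of 15 fell to 7 without the slide term and further under scaling to the array median, so that it depends on the processing. Fas differed by 1.30 ± 0.09 (2.46-fold, adjusted p = 0.000188), Tnfsf4 by 1.15 ± 0.20 (2.22-fold, adjusted p = 0.00634), Cd40 by 0.98 ± 0.07 (1.98-fold, adjusted p = 0.000228) and Tnfsf13b by 0.75 ± 0.12 (1.68-fold, adjusted p = 0.00387). The Tnfsf4 call was lost without replicate 1 of anti-CD86 + Pam2CSK4 (0.96, adjusted p = 0.0757), and the count of members called was then 7. Tnfsf13 (0.65 ± 0.18, adjusted p = 0.0318), Tnfrsf17 (0.51 ± 0.09, adjusted p = 0.00651) and Tnfrsf21 (0.49 ± 0.12, adjusted p = 0.0218) were also higher with anti-CD40 + Pam2CSK4. The Tnfrsf17 call was lost without the slide term (adjusted p = 0.0733), on slide 1 alone (adjusted p = 0.0528) and under scaling to the array median (adjusted p = 0.443). The Tnfsf13 call was lost without either anti-CD40 + Pam2CSK4 array or replicate 2 of anti-CD86 + Pam2CSK4 (adjusted p between 0.0852 and 0.113), and the Tnfrsf21 call without any 1 of the 4 arrays (adjusted p between 0.0603 and 0.0949). Tnf (0.21, 95% interval 0.05 to 0.38, adjusted p = 0.0546), Tnfrsf1a (0.11, -0.04 to 0.26) and Ltbr (0.09, -0.06 to 0.24) were not called different.

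**Figure D3:**
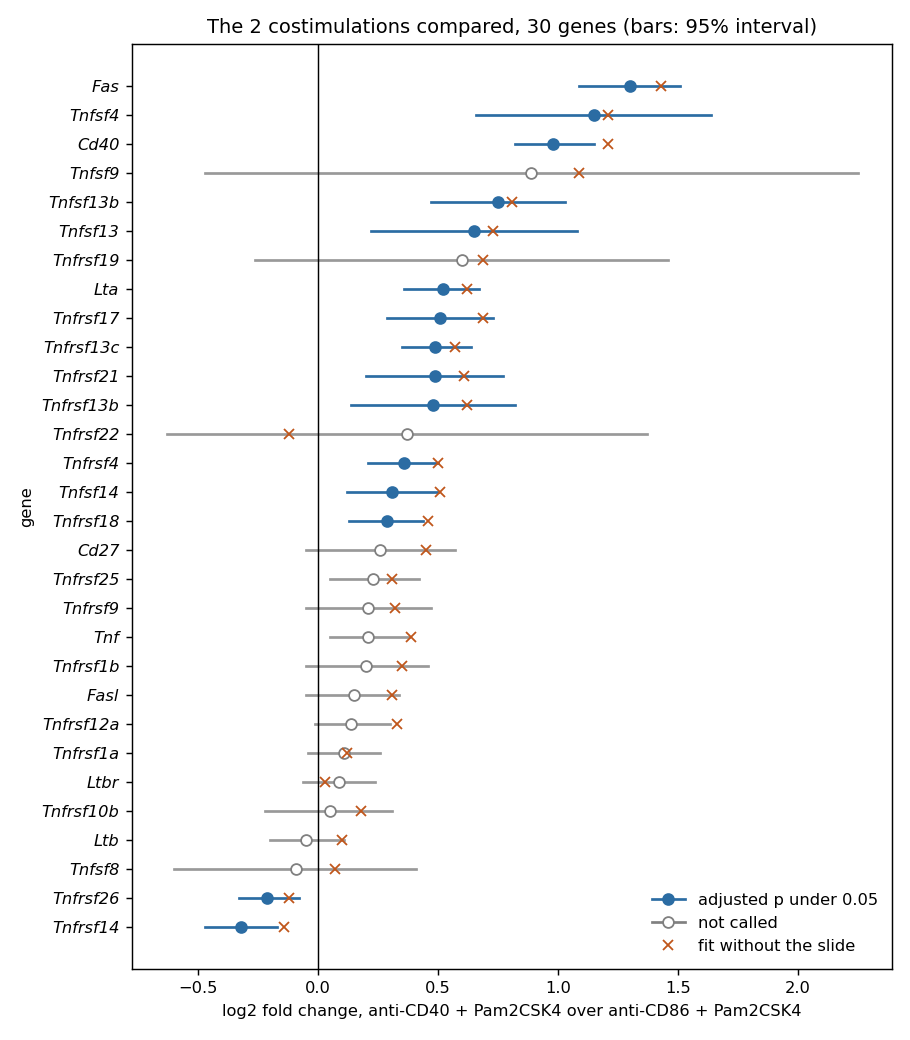
Log2 fold change of anti-CD40 + Pam2CSK4 over anti-CD86 + Pam2CSK4 for the 30 members tested, with 95% intervals of the fit (filled blue, adjusted p under 0.05) and the value without the slide term (cross). Fas, Tnfsf4 and Cd40 lie farthest to the right, and Tnfrsf14 and Tnfrsf26 are the called members left of 0.

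An interaction asks whether a combination differed from the sum of its single signals on the log2 scale. For anti-CD86 and Pam2CSK4, limma called 0 of the 30 members (0.149% of genes were called, 0.0895% higher and 0.0597% lower), and 7 had an unadjusted p under 0.05. For anti-CD40 and Pam2CSK4 it called 1, Tnfrsf1a (0.52 ± 0.09, adjusted p = 0.0247), where 8.01% of genes were called (5.22% higher and 2.79% lower). The single signals changed Tnfrsf1a by -0.46 and -0.78 and the combination by -0.71, so that it fell less than the sum of the single falls. This call was lost without the slide term (0.54, adjusted p = 0.122) and without either unstimulated array, either Pam2CSK4 array or replicate 1 of anti-CD40 + Pam2CSK4 (adjusted p between 0.0592 and 0.146).

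Downstream of the receptors, 40 genes were listed by role, among them TRAF adaptors, inhibitor of apoptosis proteins, kinases and NF-kB subunits, with some further receptors that the family's name rule did not take. Of these, 38 were tested. Pam2CSK4 called 11 (9 higher), anti-CD86 18 (11 higher), anti-CD86 + Pam2CSK4 15 (10 higher), anti-CD40 28 (21 higher) and anti-CD40 + Pam2CSK4 32 (22 higher). The shares of all genes called were 11.8%, 30.6%, 38.7%, 42.1% and 52.9% in that order (4.08%, 10.4%, 10.6%, 12.9% and 21.7% higher). For anti-CD86 + Pam2CSK4 the count of 15 is close to the share of all genes. The count of 32 includes Nfkbia, whose probe was saturated in each group and has no level to compare. Without the slide term these counts were 0, 1, 3, 16 and 18, on slide 1 alone they were 0, 0, 9, 23 and 28, and under scaling to the array median 0, 0, 0, 6 and 13, of which 2 and 10 were higher with anti-CD40 and anti-CD40 + Pam2CSK4. No share of all genes called is given for these alternatives. Traf1, an adaptor that NF-kB is known to induce, rose by 1.15 ± 0.06 with anti-CD40 and by 1.65 ± 0.06 (3.14-fold, adjusted p = 1.2e-05) with anti-CD40 + Pam2CSK4. Traf1 was at 3.09 and 3.11 in unstimulated cells and at 4.69 and 4.81 with anti-CD40 + Pam2CSK4. Nfkbie, an inhibitor of NF-kB, rose by 1.31 ± 0.05 and 1.53 ± 0.05 in the same comparisons, and Birc3, an inhibitor of apoptosis, by 1.02 ± 0.15 and 1.35 ± 0.14. Traf5 fell by 1.18 with anti-CD40 (SE 0.09) and by 1.31 with anti-CD40 + Pam2CSK4 (SE 0.08, 2.48-fold lower), from 5.23 and 5.30 in unstimulated cells to 3.85 and 4.05. Without the slide term these 4 genes were called in both comparisons as well. With anti-CD86, Traf1 fell by 0.25 (adjusted p = 0.0257) and Cflar, an inhibitor of caspase-8, by 0.48 (adjusted p = 0.00585), and neither was called without the slide term.

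**Figure D4:**
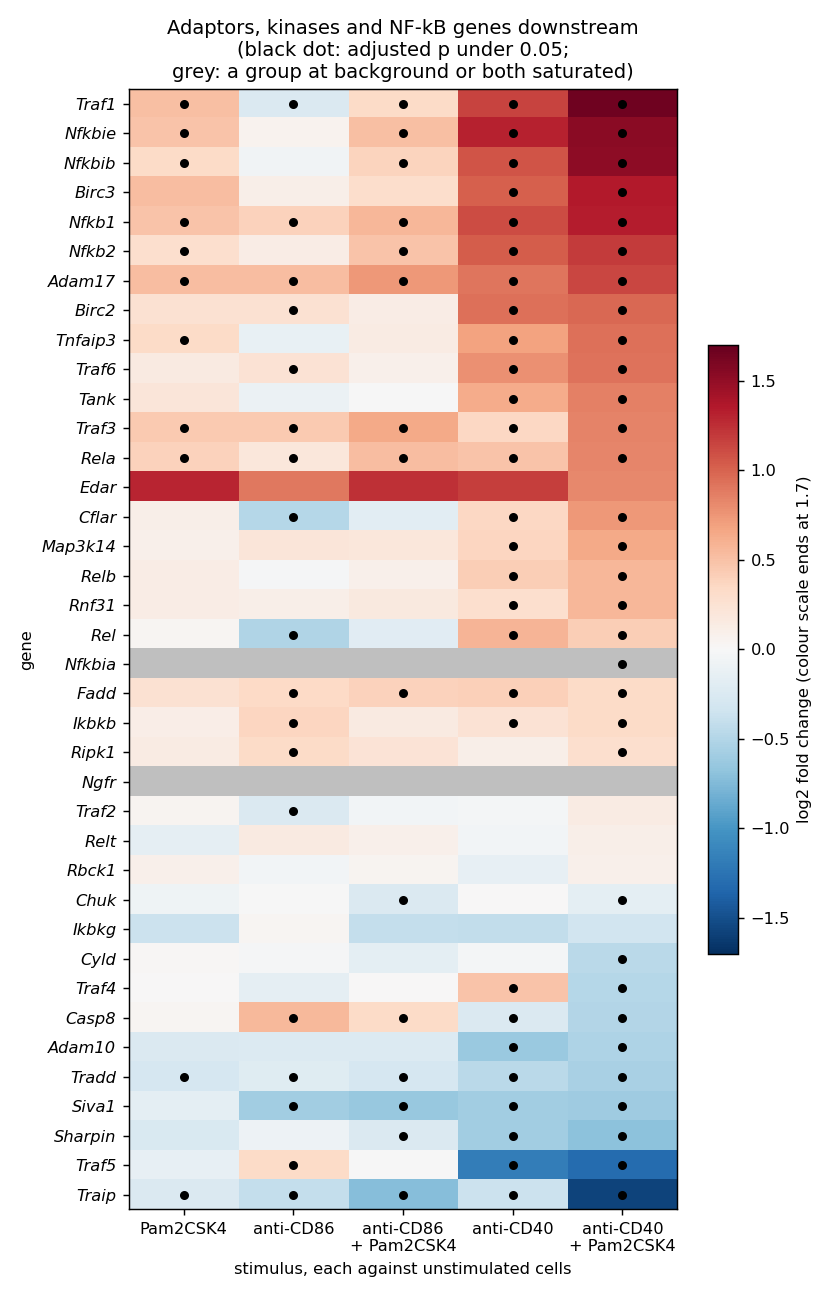
Log2 fold change of the 38 listed downstream genes tested (rows, ordered by the last column) for each stimulus against unstimulated cells, where a black dot marks an adjusted p under 0.05. Traf1, Nfkbie and Nfkbib are the darkest red and Traip and Traf5 the darkest blue with anti-CD40 + Pam2CSK4. Grey marks Ngfr, which lacked a level in at least 1 of the groups compared, and Nfkbia, which was saturated in each group.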

How the data were processed

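RNA of RB cells was labelled with Cy3 and hybridised to a custom Agilent mouse array, 12 arrays of 1 colour. The authors deposited an intensity per spot as written by Feature Extraction 10.5.1.1, of which the processed signal (background-subtracted and detrended within the array) was used. They also deposited a log2 table, in which each column was the log2 processed signal minus 1 constant close to the 75th percentile of the array. Its scale and direction were thus known, and it served as an alternative. The array was annotated to mm9 and gene names are its own.

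Control and outlier spots were left out, saturated spots were kept, spots of a probe were averaged, and the 75th percentile of log2 signal was subtracted. A probe passed when some group had both of its arrays well above background, as 31667 of 61307 did, and 68 of these lacked a value through an outlier. The other 31599 were tested with limma 3.58.1 (R 4.3.3, lmFit and eBayes) with 1 coefficient per group and a slide term over all 12 arrays, and Benjamini-Hochberg adjustment over all probes tested. A gene was read by its brightest probe. The script was tested on simulated data with known changes.

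The members, gene lists and tests were chosen with earlier results of these data known. Values are given for Cd40, Tnf, Lta, Ltb, the BAFF and APRIL ligands and receptors, and every member called against unstimulated cells with a log2 change of at least 0.58. Other members are given by calls and ranges. Of the downstream list, values of Traf1, Nfkbie, Birc3, Traf5 and Cflar were chosen after they were seen, as were the arrays of Cd40lg, Cd70 and Tnfsf18. Promoter windows are from RefSeq (GRCm38.p6), in which all 41 members matched a gene and 31 had a window. Alternatives were scaling by array median, quantile normalization, normexp (offset 50) on the mean and background intensity, the deposited table, no filter, no slide term, slide 1 alone, a replicate block, the median over probes and each array left out. Figures used Python 3.11.15, pandas 2.3.3 and matplotlib 3.10.9. The number of arrays limits the precision.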

Additional observations from a re-analysis of the deposited data

Results flagged for a closer look

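Tnfrsf1a was the member whose response to Pam2CSK4 differed between cells with and without anti-CD40 in a test of the difference itself. The interaction of anti-CD40 and Pam2CSK4 was 0.52 on the log2 scale (SE 0.09, 95% interval 0.30 to 0.74, adjusted p = 0.0247 by limma). Pam2CSK4 changed it by -0.46, anti-CD40 by -0.78 and the combination by -0.71. It lay between 0.47 and 0.65 under the alternatives run and was called in 6 of 16. What lies behind it was not tested.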

How the results depend on the processing

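Of the 69 called differences of the 15 genes with values on every array, 16 were called under every alternative run and 0 changed direction. Their differences that were not called became called 11 times and changed sign 76 times over the alternatives, and 1009 times did neither. Counts of members called are given here as Pam2CSK4, anti-CD86, anti-CD86 + Pam2CSK4, anti-CD40 and anti-CD40 + Pam2CSK4, each against unstimulated cells (7, 10, 10, 12 and 19 as reported), followed by anti-CD86 + Pam2CSK4 and anti-CD40 + Pam2CSK4 against Pam2CSK4 (5 and 10), the combinations against each other (15) and the interaction with anti-CD40 (1). They were 1, 0, 3, 7, 6, 0, 1, 3 and 0 with scaling to the array median, of which 1, 0, 1, 2, 4, 0, 1, 3 and 0 were higher. They were 1, 1, 7, 8, 10, 0, 4, 7 and 0 with no filter on dim probes, 0, 1, 6, 8, 9, 0, 4, 7 and 0 without the slide term, and 0, 0, 8, 9, 16, 0, 4, 10 and 0 on slide 1 alone. Quantile normalization gave 2 for the interaction, normexp gave 3, and the deposited table gave the reported counts. Quantile normalization also called 1 member higher and 5 lower for anti-CD86 + Pam2CSK4 against Pam2CSK4, beside 0 and 5. The interaction of anti-CD86 and Pam2CSK4 stayed at 0 under every alternative. No share of all genes called is given under the alternatives, and why the counts moved was not tested.

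With each array left out in turn (a lone array was assumed to vary like the other groups), the counts ranged from 2 to 3, 1 to 9, 7 to 8, 9 to 11, 12 to 13, 0 to 0, 6 to 7, 7 to 11 and 0 to 3 in the same order. For anti-CD86 against unstimulated cells, the lowest came without replicate 2 of unstimulated cells and the highest without replicate 2 of anti-CD86. Scaling to the array median moved the median change of all probes by up to -0.30 (anti-CD40), quantile normalization and normexp by at most 0.06, and leaving out the slide term by at most 0.09.

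With the replicate number as a block beside the slide term, the counts were 4, 5, 8, 9, 16, 5, 8, 10 and 0. Same-numbered arrays deviated together (correlations from 0.54 to 0.67) only among the 4 groups in which the number is also the slide, and from -0.11 to 0.07 elsewhere. In those 4 groups number and slide cannot be told apart, so that this does not decide whether the numbers share more than the slide. Members near or below background (11 of 41) have no test, and the saturated probe of Ltb gives only bounds.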
